A study of Mus musculus with 4 samples.

Results

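The comparison set sorted common lymphoid progenitors (CLP) against sorted LSK cells from wild type (WT) adult mouse marrow, with 1 microarray per sort. Its members are the 2 arrays labelled WT CLP and WT LSK, of 4 arrays in the series. Of 55681 probes, 40744 (73.2%) lay well above background, by the scanner software's own flag, on at least 1 of these 2 arrays. They covered 18191 of 24277 genes.

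The study examined marrow progenitors of SFRP5-transgenic mice and their WT littermates, and the other 2 arrays hold the same sorts from the transgenic mice. SFRP5 is a secreted protein that binds Wnt ligands. LSK cells were sorted as lineage-negative, c-kit high and Sca-1 positive, and the CLP-enriched cells as lineage-negative cells with IL7Rα and low levels of both c-kit and Sca-1. All cells were adult marrow cells, freshly isolated, and each array received Cy3-labelled cDNA amplified from 6.1 ng of total RNA. The number of mice behind a sample, the sex of the mice and the promoter driving the transgene were, in the sources used here, not given. The label of CLP names an enriched fraction, not a purified cell type.

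LSK cells are the marrow fraction that holds haematopoietic stem cells and multipotent progenitors, which keep a set of stem cell transcription factors active. Common lymphoid progenitors lie downstream of them, depend on interleukin 7 signalling, switch on the recombinase that rearranges antigen receptor genes, and give rise mainly to B cells, with T, natural killer and innate lymphoid potential. In textbook accounts the CLP no longer makes red cells or granulocytes.

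A level below is the log2 signal of a gene's probe minus the 75th percentile of its array, so 0 is the signal at that percentile and each unit is a doubling. The WT difference is the level on WT CLP minus that on WT LSK. With 1 array per side it has no replicate error and no p-value. The only error seen within an array was that of spots repeated for a probe, whose SD had a median of 0.0706 on WT LSK and 0.0621 on WT CLP for probes at or above the 75th percentile, and of 0.485 and 0.441 for the dimmest probes. To set the difference against some spread, genotype and sort were fitted together over the 4 arrays with limma, which leaves 1 residual degree of freedom and tests the mean sort difference of both genotypes, not that of WT alone. A gene is said to have risen or fallen only where this fit gave an adjusted p under 0.05. The residual degree of freedom reflects the gap between the WT and SFRP5 sort differences. Any dependence of the sort difference on genotype is thus mixed with noise in it. Of the 8.07 total degrees of freedom in limma, 7.07 came from the variance estimated across all genes. The p-values therefore rest mostly on that shared variance. Nothing says that the arrays came from separate mice, so these p-values do not measure the spread between mice. In bulk samples, fewer cells of a type and less RNA per cell cannot be told apart.

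The WT arrays were alike in quality, with 70.1% of probes above background on WT LSK and 65.7% on WT CLP, and 65.3% and 66.1% on the SFRP5 arrays. All 4 lay on 1 slide and were scanned together. Xist, which marks female cells, was below that mark on both WT arrays and stood at 4.99 on SFRP5 LSK and 4.50 on SFRP5 CLP, so the genotypes differed in it while the WT pair did not. The other 5 sex-linked genes listed, Y-linked Uty, Ddx3y, Eif2s3y and Kdm5d and X-linked Tsix, were above background on both WT arrays. Of these 5, 4 were above background on all 4 arrays, so Y-linked probes gave signal on the SFRP5 arrays as well.

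Differences between the sorts were wide and ran both ways. Of 16017 genes above background on both WT arrays, 2849 (17.8%) were at least 2-fold higher in WT CLP and 2288 (14.3%) at least 2-fold lower, with a median difference of 0.016 and an SD of 1.15 across genes. At 16-fold, 100 genes were higher and 24 lower. A further 1443 genes were above background on WT LSK alone and 663 on WT CLP alone, and for these only a lower bound of the fold can be given. Among the 8654 brighter genes, at or above the 75th percentile on at least 1 array, 2214 were 2-fold higher and 992 lower, whereas of 4130 genes up to 4-fold dimmer than that, 472 were higher and 888 lower. The split depended on the scaling. With normexp background correction 2017 genes were higher and 1038 lower, and on the authors' deposited signals, whose scaling moved the median of all genes by -0.41, 1540 were higher and 4238 lower. Of 1324 genes with a 2-fold difference and a further measured probe, that probe had the same sign in 1140 (86.1%) and was itself 2-fold in 731. Of 264 genes chosen for naming with a 2-fold difference, normexp kept the direction of all 264 and made 105 smaller by more than 1.5-fold. Where a fold printed below moved that far, its normexp value follows it. Folds given as at least a value are bounds, and no normexp value is given for them. They are limited by the lowest signal above background, which was -5.07 on WT LSK and -5.74 on WT CLP. With normexp it was -2.41 and -2.28, so the bounds depend on the background correction. The fit over 4 arrays called 1177 genes higher (6.76% of 17416 tested) and 794 lower (4.56%). List counts below are to be read beside these shares of all genes. They are 17.8% higher and 14.3% lower at 2-fold in WT, and 6.76% and 4.56% in the fit. The 2-fold shares depend on brightness, with 25.6% higher, 11.5% lower and a median of 0.32 among the 8654 brighter genes. Lists of bright genes are to be read beside these values as well.

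**Figure D1:**
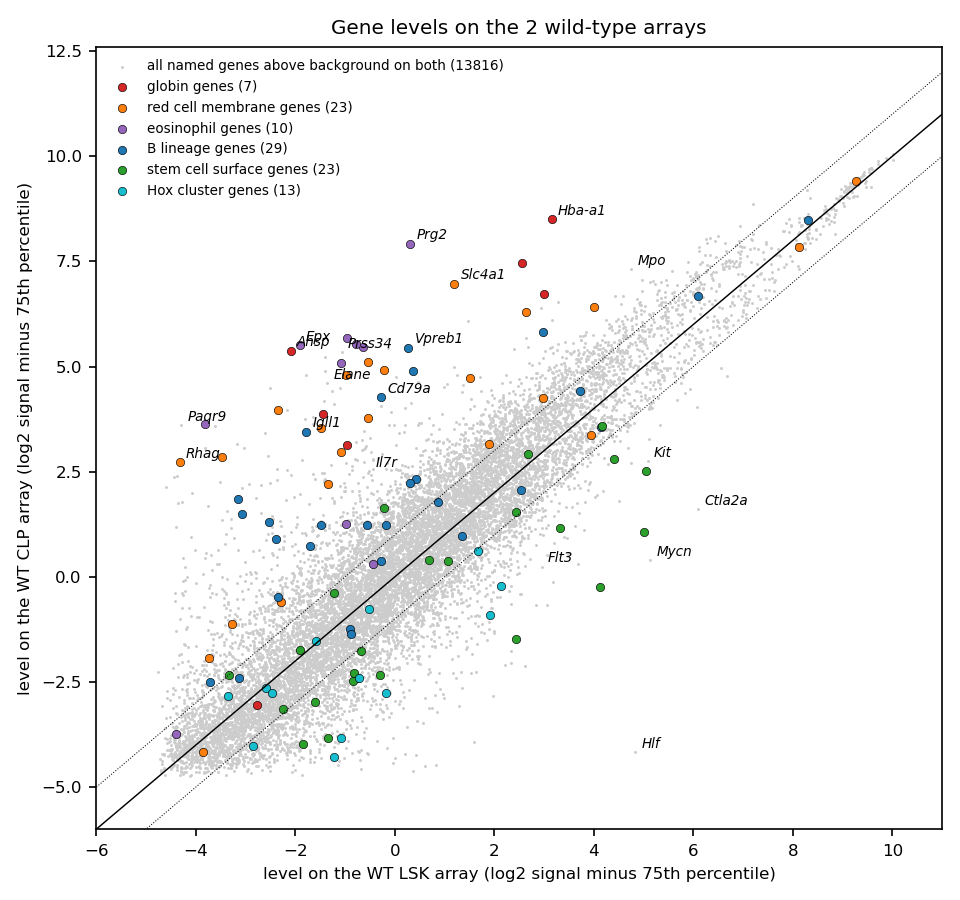
Level of each of 13816 named genes on WT LSK (horizontal axis) and on WT CLP (vertical axis), both as log2 signal minus the array's 75th percentile, with dotted lines at 2-fold. Globin, red cell membrane, eosinophil and B lineage genes lie mostly above the upper line, and stem cell surface and Hox genes mostly below the lower one.

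The 15 bright genes with the highest WT differences held red cell genes, granule genes of eosinophils and basophils, and several with no place in the lists. Paqr9, of the progestin and adipoQ receptor family, had the largest. It stood at -4.30 on WT LSK, 3.60 on WT CLP, -2.74 on SFRP5 LSK and 2.86 on SFRP5 CLP. Cldn13, a claudin, stood at -3.62 on WT LSK, 3.58 on WT CLP, -5.72 on SFRP5 LSK and 2.67 on SFRP5 CLP, and Nxpe2 at -4.59 on WT LSK, 2.14 on WT CLP, -6.40 on SFRP5 LSK and 1.39 on SFRP5 CLP. In all 3 both CLP arrays were high and both LSK arrays low, with WT folds of 239, 147 and 107 (with normexp 36.2, 41.4 and 15.9) and limma adjusted p of 0.000537, 0.000234 and 0.000301. Among genes above background on WT CLP alone, Col5a1, a collagen chain, was at least 297-fold higher, Tlcd4 at least 177-fold and Phyhip at least 95.4-fold.

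The transcripts of c-kit, Sca-1 and IL7Rα, the proteins that set the gates, were measured on both arrays and differed in the direction of the gates. Kit, which binds stem cell factor, stood at 5.08 on WT LSK, 2.75 on WT CLP, 5.18 on SFRP5 LSK and 3.47 on SFRP5 CLP. Ly6a, which encodes Sca-1, stood at 1.35 on WT LSK, -0.84 on WT CLP, 1.02 on SFRP5 LSK and -0.70 on SFRP5 CLP. Il7r, the interleukin 7 receptor chain, stood at -0.51 on WT LSK, 2.52 on WT CLP, 0.89 on SFRP5 LSK and 3.13 on SFRP5 CLP. Both CLP arrays were below both LSK arrays for Kit and Ly6a and above them for Il7r. The WT folds were 5.03 lower for Kit, 4.59 lower for Ly6a and 8.19 higher for Il7r, with limma adjusted p of 0.00582, 0.0164 and 0.00415. Flt3, a cytokine receptor usually used to define CLP but not part of these gates, was lower in WT CLP. It stood at 2.95 on WT LSK, 0.24 on WT CLP, 3.10 on SFRP5 LSK and 0.32 on SFRP5 CLP, a 6.52-fold difference in WT (limma adjusted p = 0.00244).

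The lineage antigens that the sorts exclude were not all low in WT CLP. Of 11 such genes, 7 were above background on both WT arrays. In the limma fit over the 4 arrays 2 of the 11 rose and none fell. Cd3e (-0.82), Cd4 (-0.80), Ptprc (-0.70) and Cd5 (0.17) lay within 2-fold, and Itgax was lower without passing the fit (-1.19). The probes of Itgam disagreed, with 0.18 by the brightest and -0.51 and -1.80 by the others. Ly6g, Klrb1c and Cd8a were not above background on WT CLP.

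Defining markers of 15 cell types were set against the labels, each list summed on the linear scale where 1 is the 75th percentile. The 7 LSK markers summed to 95.1 on WT LSK and 8.91 on WT CLP, and all but Procr were above background on WT CLP. The 7 CLP markers, all above background on WT CLP, summed to 78.5 and 118.8, of which Dntt alone, whose difference did not pass the fit, gave 68.3 and 102.6. Flt3 is in that list and was lower on WT CLP. Markers of other lineages were higher on WT CLP as well. Eosinophil markers, 4 of 4 above background on both arrays, summed to 2.76 on WT LSK and 341 on WT CLP, where Prg2 made up 71.2%. Granulocyte-monocyte progenitor markers, also 4 of 4, summed to 31.0 and 258. Erythroid markers, with 1 not above background on WT LSK, summed to 3.11 and 66.7.

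Mast cell and basophil markers (3 of 6 above background on WT LSK, 6 of 6 on WT CLP) summed to 1.31 and 52.6. B cell markers summed to 2.35 and 26.7, with Ms4a1 above background on neither WT array. Neutrophil markers, 5 of 6 above background on each array, summed to 1.86 and 21.8, with Ly6g not above background on WT CLP. The other lists moved less. T cell markers summed to 5.45 and 2.79, monocyte and macrophage markers to 25.9 and 24.3, of which Csf1r made up 94.1% on each array, and dendritic cell markers to 36.1 and 34.3, nearly all of it Siglech. Natural killer and innate lymphoid markers summed to 1.07 and 5.78, with Klrk1 not above background on either array. Il1rl1, also a gene of mast cells, made up 78.8% of the sum on WT CLP, where Klrb1c was not above background. Megakaryocyte markers summed to 3.59 and 7.14. Plasma cell markers summed to 0.51 and 0.83 with Tnfrsf17 not above background on either, and stroma and endothelium markers to 4.58 and 7.22 with Col1a1 not above background on either. The part that cells of these other types had in the gene differences was not tested.

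**Figure D2:**
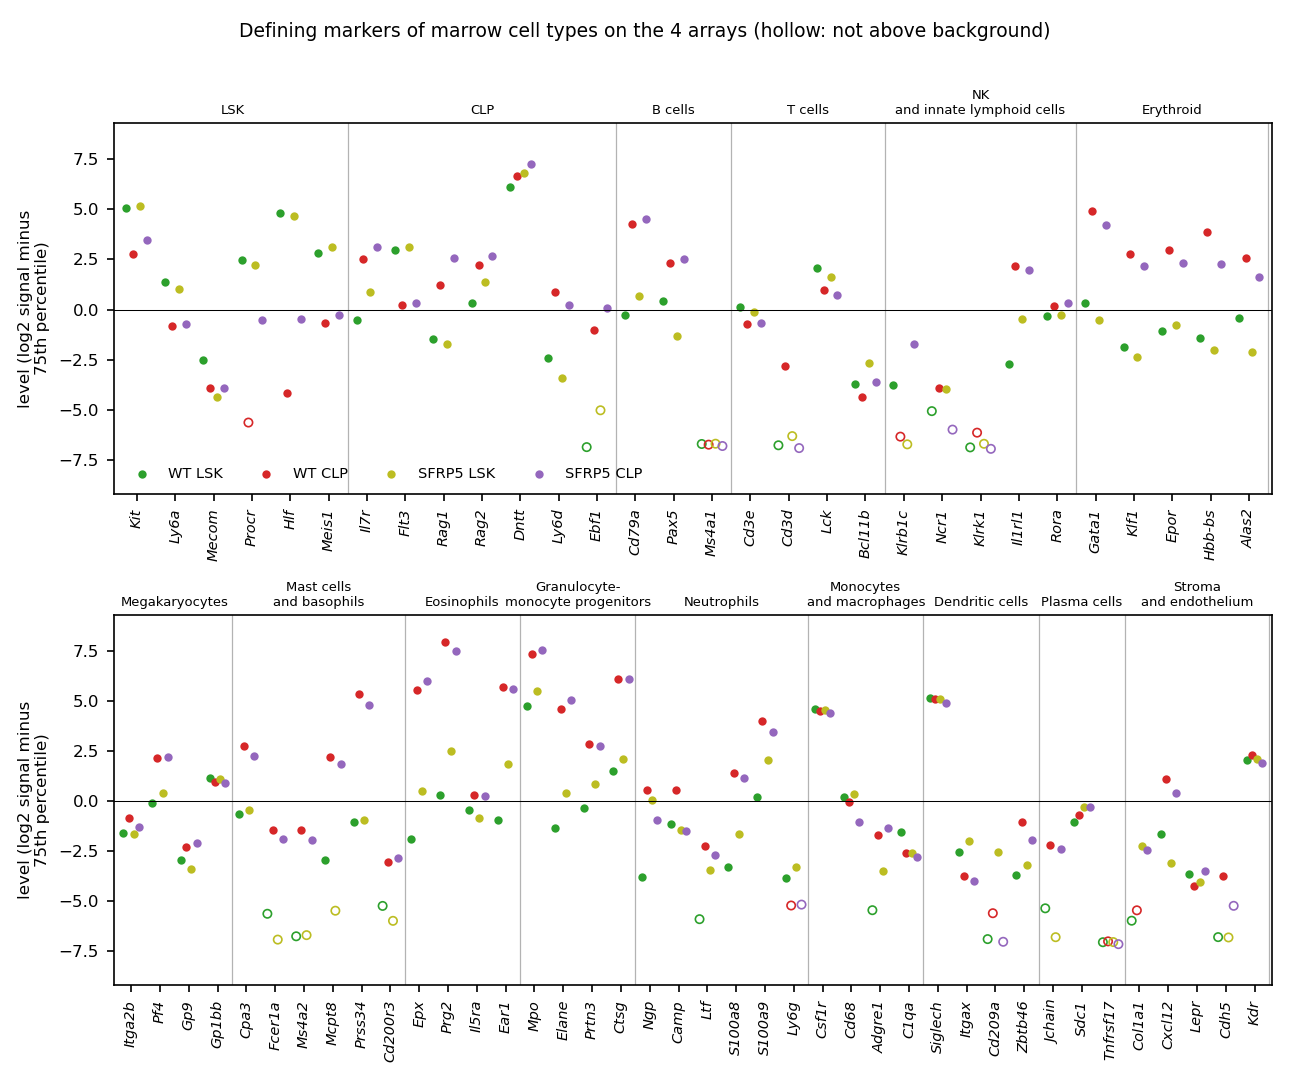
Level (log2 signal minus the array's 75th percentile, vertical axis) of defining markers of 15 cell types on the 4 arrays, with hollow points where the probe was not well above background. Eosinophil, erythroid, mast cell and granulocyte-monocyte progenitor markers sit higher on both CLP arrays than on both LSK arrays, and the LSK markers other than Mecom sit lower.

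The transcription factors of stem cells were mostly lower in WT CLP. Of 24 above background on both WT arrays, 12 were at least 2-fold lower and 2 higher (14.3% and 17.8% of all genes), with a median difference of -1.1 against 0.016 over all genes. Over the 4 arrays, 9 fell and 1 rose. Hlf, a PAR family factor of stem cells, had the largest lower value of any bright gene. It stood at 4.83 on WT LSK, -4.17 on WT CLP, 4.67 on SFRP5 LSK and -0.46 on SFRP5 CLP. Both CLP arrays lay far below both LSK arrays, by 511-fold in WT (96.3-fold with normexp), where its WT CLP signal was close to background, and by less in the SFRP5 pair. The mean sort difference was -7.06 ± 0.76 (SE, limma adjusted p = 0.00169).

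Mycn, which with Myc sustains stem cell proliferation and survival, stood at 5.13 on WT LSK, 0.40 on WT CLP, 5.16 on SFRP5 LSK and 1.13 on SFRP5 CLP, and was 26.6-fold lower in WT CLP (limma adjusted p = 0.000369). Myc itself lay within 2-fold (-0.48). Meis1, a homeodomain partner of Hox proteins, stood at 2.83 on WT LSK, -0.68 on WT CLP, 3.14 on SFRP5 LSK and -0.27 on SFRP5 CLP. Prdm16, a stem cell zinc finger factor, stood at 0.60 on WT LSK and -2.89 on WT CLP, and Hmga2, a chromatin protein of self-renewing cells, at 1.99 on WT LSK and -1.29 on WT CLP. Each of these 3 was lower on both CLP arrays, by 11.4-fold, 11.2-fold and 9.70-fold in WT (with normexp 4.67-fold for Prdm16 and 5.85-fold for Hmga2), and each fell over the 4 arrays. The 2 factors that were higher were Gfi1b (1.95) and Tal1 (1.33), which also serve red cells and megakaryocytes, and of these only Gfi1b passed the fit (limma adjusted p = 0.0121). Runx1 (-0.45), Gata2 (-0.68) and Bmi1 (0.12) lay within 2-fold. For Mecom the probes of the gene disagreed. The probe with the highest mean gave -1.39, while another stood at -0.65 on WT LSK and, not above background, at -6.89 on WT CLP.

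Hox genes, which encode the homeodomain factors that mark immature cells, were detected only in part. Of 39 on the array, 13 were above background on both WT arrays, 8 of them lower in WT CLP by 2-fold or more and none higher, the median being -1.17. Hoxa9, the best studied of them in blood, stood at 1.91 on WT LSK, -0.91 on WT CLP, 2.11 on SFRP5 LSK and -0.30 on SFRP5 CLP. Hoxa10 stood at 0.28 on WT LSK and -4.91 on WT CLP, Hoxa5 at -0.62 on WT LSK and -4.74 on WT CLP and Hoxb5 at -3.31 on WT LSK and -6.16 on WT CLP. These last 3 were above background on WT LSK alone, and so at least 36.4, 17.5 and 5.36-fold lower in WT CLP. Over the 4 arrays, 9 of 16 Hox genes tested fell and none rose. Other members such as Hoxa13 (-0.27) and Hoxd12 (-0.30) lay within 2-fold, and 20 were above background on neither WT array.

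Surface genes of stem cells were also mostly lower. Of 23 above background on both, 13 were lower by 2-fold or more and 1 higher, the median being -1.38, and 4 more were above background on WT LSK alone. Procr, the endothelial protein C receptor, stood at 2.46 on WT LSK, -5.64 on WT CLP, 2.22 on SFRP5 LSK and -0.55 on SFRP5 CLP. Angpt1, the ligand of Tek, stood at 5.0 on WT LSK, 1.07 on WT CLP, 5.14 on SFRP5 LSK and 1.36 on SFRP5 CLP. For both the CLP arrays lay below the LSK arrays, by at least 274-fold for Procr and 15.3-fold for Angpt1 in WT. Procr was above background on SFRP5 CLP, which gave a smaller difference of -2.77 in that pair (limma adjusted p = 0.0153).

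Robo4, an endothelial-type guidance receptor, was at least 72.0-fold lower in WT CLP, Esam, a junction molecule, at least 16.6-fold, and Tek, the angiopoietin receptor, at least 8.87-fold. Cd34, the sialomucin of progenitors, was 5.74-fold lower and Adgrl4 15.1-fold lower (8.77-fold with normexp). The member that was higher was Abcg2, the transporter behind the side population stain, at 1.86 (limma adjusted p = 0.0423). Over the 4 arrays 14 of 27 members fell and 1 rose. Slamf1 and Ptprb were above background on neither WT array, and Vwf (0.85), Cd9 (0.24) and Fgd5 (-0.27) lay within 2-fold.

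Other genes with large lower values were not of these lists. Ctla2a, a cysteine protease inhibitor, stood at 6.10 on WT LSK, 1.62 on WT CLP, 6.26 on SFRP5 LSK and 1.43 on SFRP5 CLP, and was 22.4-fold lower in WT CLP (limma adjusted p = 0.000234). Its near-identical neighbour Ctla2b gave -4.39, and a probe of either may read the other. Arhgef5, a guanine nucleotide exchange factor, gave -5.51. Nfatc2, a calcium-regulated factor, gave -5.30 with its brightest probe and -1.01 with a further probe. Likewise Pear1, a platelet receptor, gave -4.37 and -1.27. Slc18a1, a monoamine transporter, was at least 149.8-fold lower and Vldlr, a lipoprotein receptor, at least 112-fold.

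Cytokine receptors went both ways, more of them lower. Of 37 measured, 12 (32.4%) were lower by 2-fold or more and 4 (10.8%) higher, against 14.3% and 17.8% of all genes. The median was -0.43. Lower were Il1r1 (-2.57), the interleukin 1 receptor, Il12rb2 (-1.74), Il6ra (-1.35) and Il2rg (-1.62), the common chain that pairs with Il7r. Higher were Il7r, Epor (4.06), the erythropoietin receptor, Il1rl1 (4.88), the interleukin 33 receptor, and Il18r1 (1.21). All named here except Il6ra and Il18r1 passed the fit, whose limma adjusted p were 0.0529 for Il6ra and 0.250 for Il18r1. Csf1r (-0.09), Csf2ra (-0.19) and Csf3r (-0.43), the colony stimulating factor receptors, lay within 2-fold.

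Downstream of these receptors, 7 of 20 JAK, STAT and SOCS genes (35%) were at least 2-fold lower and none higher. Of all genes 14.3% were lower and 17.8% higher. The list median was -0.49. Jak3, the kinase bound by Il2rg, stood at 1.24 on WT LSK, -1.42 on WT CLP, 1.17 on SFRP5 LSK and -0.68 on SFRP5 CLP. Cish, an inhibitor induced by STAT5, stood at 0.47 on WT LSK, -1.95 on WT CLP, 0.36 on SFRP5 LSK and -2.34 on SFRP5 CLP. Both were lower on the CLP arrays of each genotype, by 6.34-fold and 5.33-fold in WT (4.14-fold and 2.86-fold with normexp). Stat4 (-1.97), Socs3 (-2.35) and Stat3 (-1.17) fell as well over the 4 arrays. Jak1 (-0.22), Stat5a (0.01) and Stat5b (-0.40), which together with Jak3 carry the interleukin 7 signal, lay within 2-fold, unlike Jak3. Jak2 (0.07) lay within 2-fold too.

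Interferon-stimulated genes were lower in WT CLP as a group. Of 31 measured, 16 were at least 2-fold lower and 1 higher, with a median of -1.04, and 13 fell over the 4 arrays with none rising. Oasl2, an oligoadenylate synthetase-like protein, stood at 0.61 on WT LSK, -4.50 on WT CLP, 0.81 on SFRP5 LSK and -3.53 on SFRP5 CLP. Ifitm3, which blocks virus entry, stood at 5.82 on WT LSK, 4.37 on WT CLP, 6.11 on SFRP5 LSK and 3.95 on SFRP5 CLP, and Ifitm1 at 3.32 on WT LSK, 1.16 on WT CLP, 4.02 on SFRP5 LSK and 0.85 on SFRP5 CLP. For all 3 both LSK arrays lay above both CLP arrays, by 34.5, 2.74 and 4.49-fold in WT, with 6.67-fold for Oasl2 under normexp. Irf9 (-0.09), Isg15 (-0.98) and Stat2 (-0.32) lay within 2-fold, and Bst2, also known from plasmacytoid cells, was higher (1.02, limma adjusted p = 0.470).

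Immediate early genes, which respond within minutes to stimulation and to cell handling, were also mostly lower, 11 of 26 by at least 2-fold with 2 higher and a median of -0.71. Nr4a1, an orphan receptor, stood at 3.68 on WT LSK, 0.31 on WT CLP, 4.50 on SFRP5 LSK and 1.94 on SFRP5 CLP. Egr1 stood at 4.70 on WT LSK, 3.06 on WT CLP, 5.33 on SFRP5 LSK and 4.02 on SFRP5 CLP and Fos at 2.10 on WT LSK, 0.95 on WT CLP, 4.51 on SFRP5 LSK and 2.79 on SFRP5 CLP. Within each genotype the CLP array was the lower of the pair for all 3, but Fos was higher on SFRP5 CLP than on WT LSK. The limma adjusted p were 0.00195, 0.0156 and 0.0273. Junb (-0.46), Dusp1 (-0.42) and Nfkbia (-0.41) lay within 2-fold in WT. For Ier5, higher at 1.56 by its brightest probe, the mean of its probes gave -0.40.

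Among chromatin regulators, 9 of 25 (36%) were at least 2-fold lower and 1 (4%) higher, against 14.3% and 17.8% of all genes. The de novo methyltransferases Dnmt3a (2.48 on WT LSK and 0.24 on WT CLP) and Dnmt3b (4.07 on WT LSK and 1.94 on WT CLP) were lower by 4.73 and 4.38-fold and fell over the 4 arrays, as did Tet1 (-1.61) and the polycomb reader Cbx7 (-1.50, with -0.07 by a further probe). The maintenance enzyme Dnmt1 lay within 2-fold (0.59). The polycomb subunit Suz12 was higher (1.02, limma adjusted p = 0.0701) and its partner Ezh2 lay just within 2-fold (0.97).

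B lineage genes were mostly higher in WT CLP. Of 29 B lineage genes measured on both WT arrays, 17 were higher by 2-fold or more and 1 lower (17.8% and 14.3% of all genes), the median being 1.79, and 4 more were above background on WT CLP alone. Over the 4 arrays 21 of 33 rose and none fell. Among the factors that commit cells to this lineage, Ebf1 stood at -6.87 on WT LSK, -1.04 on WT CLP, -5.03 on SFRP5 LSK and 0.08 on SFRP5 CLP, not above background on WT LSK and so at least 16.4-fold higher in WT CLP. Pax5, its target and partner, stood at 0.42 on WT LSK, 2.32 on WT CLP, -1.32 on SFRP5 LSK and 2.52 on SFRP5 CLP. Pou2af1, the coactivator of octamer factors, stood at 0.36 on WT LSK, 4.90 on WT CLP, 1.26 on SFRP5 LSK and 5.60 on SFRP5 CLP. In all 3 both CLP arrays lay above both LSK arrays, with limma adjusted p of 0.00124, 0.0103 and 0.000286. Irf4 was at least 20.6-fold higher, and Foxo1, which drives Il7r and Rag transcription, gave 1.79.

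The genes of the pre-B receptor were among the largest B lineage differences. Igll1 and Vpreb1 encode the surrogate light chain, which pairs with the first heavy chain a B cell makes. Igll1 stood at -1.78 on WT LSK, 3.46 on WT CLP, -3.15 on SFRP5 LSK and 3.56 on SFRP5 CLP. Vpreb1 stood at 0.27 on WT LSK, 5.45 on WT CLP, 1.71 on SFRP5 LSK and 5.65 on SFRP5 CLP. Cd79a, the signalling chain of the receptor, stood at -0.28 on WT LSK, 4.27 on WT CLP, 0.69 on SFRP5 LSK and 4.54 on SFRP5 CLP. All 3 were well separated between the sorts, by 37.7, 36.3 and 23.3-fold in WT, with 21.0-fold for Igll1 under normexp. Blnk (4.57), the adaptor downstream, and Vpreb3 (5.01) rose too, Cd79b rose less (1.41), and the kinases Btk (-0.38) and Syk (-0.48) lay within 2-fold. Genes of later B cells were not part of this. Ms4a1 was above background on neither WT array, and Cd22 (-0.58), Cr2 (-0.46) and Cd72 (-0.35) lay within 2-fold.

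Recombination genes gave a split within the machinery. Rag1, which with Rag2 cuts the gene segments, stood at -1.49 on WT LSK, 1.22 on WT CLP, -1.70 on SFRP5 LSK and 2.56 on SFRP5 CLP. Rag2 stood at 0.31 on WT LSK, 2.22 on WT CLP, 1.39 on SFRP5 LSK and 2.67 on SFRP5 CLP. Dntt, the template-free polymerase, stood at 6.09 on WT LSK, 6.68 on WT CLP, 6.82 on SFRP5 LSK and 7.25 on SFRP5 CLP. The CLP arrays were above both LSK arrays for Rag1 and Rag2, by 6.55 and 3.75-fold in WT (Rag1 by 4.32-fold with normexp), whereas Dntt was bright on every array, its WT CLP value lay below SFRP5 LSK and its WT difference was 0.59 (limma adjusted p = 0.220). Of 17 recombination and end joining genes, 7 were higher by 2-fold or more and none lower, at a median of 0.39. On the authors' signals, whose scaling moves all genes by -0.41, it was -0.03. Besides the Rag genes only Hmgb1, a cofactor of the recombinase, rose (1.08). Lig4 (2.04) and Xrcc6 (1.13) were higher in WT without passing the fit (limma adjusted p = 0.0811 and 0.0858). Xrcc5 (-0.76), Prkdc (0.04) and Atm (-0.72), which act in joining, lay within 2-fold.

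The wider early lymphoid list went both ways, with 7 of 28 higher by 2-fold or more, 8 lower and a median of 0.13 whose sign changed under 4 of 9 processing alternatives. Besides Rag1, Rag2, Il7r and Blnk, the higher members included Ly6d, the surface protein of B-biased CLP, at 3.29, and Irf8 at 1.66. Lef1, a partner of beta-catenin in pro-B cells, was at least 23.3-fold higher (limma adjusted p = 0.000626). Lower members included the chromatin organiser Satb1 (-1.97), the receptor Cd27 (-2.25), Sox4 (-1.71) and Mef2c (-1.13), all of which fell over the 4 arrays. Ikzf1, the factor Ikaros, lay within 2-fold (0.79).

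Of 21 T lineage genes, 16 lay within 2-fold, where 67.9% of all genes did, 1 was higher and 4 were lower, the lower share being near the 14.3% of all genes. The median was -0.65. Ets1 rose (1.42) and Tox fell (-1.83), while Lck (-1.11), Lcp2 (-1.79) and Cd28 (-2.11) were lower in WT without passing the fit. Gata3 (0.90), Bcl11b (-0.62) and Thy1 (0.32) lay within 2-fold, Il2ra was above background on neither WT array, and the probes of Tcf7 gave 0.58 and 2.93.

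Of 17 natural killer and innate lymphoid genes, 6 were higher by 2-fold or more, none was lower, and the median was 0.36, or -0.05 with the same scaling by the authors. The largest was Il1rl1, also a gene of mast cells, at 4.88. Id2, the inhibitor that innate lymphoid cells need, stood at -3.36 on WT LSK, -0.65 on WT CLP, -1.88 on SFRP5 LSK and -0.71 on SFRP5 CLP, and Zbtb16, the factor PLZF, at -0.54 on WT LSK, 1.52 on WT CLP, 0.37 on SFRP5 LSK and 1.40 on SFRP5 CLP. In both genes the CLP arrays were above the LSK arrays, and both rose (limma adjusted p = 0.0494 and 0.0432). Tbx21 (0.14), Rora (0.49) and Nfil3 (0.09) lay within 2-fold, and Klrk1, Il5 and Il13 were above background on neither WT array.

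Id proteins block E proteins, the helix-loop-helix factors of lymphoid cells, and Notch signalling favours T over B fate. Tcf3, the gene of the E2A proteins, stood at 0.24 on WT LSK, 2.44 on WT CLP, 1.25 on SFRP5 LSK and 2.07 on SFRP5 CLP. Id3 stood at -3.68 on WT LSK, -0.38 on WT CLP, -2.75 on SFRP5 LSK and -0.64 on SFRP5 CLP. Id1 stood at -4.25 on WT LSK, -2.39 on WT CLP, -1.08 on SFRP5 LSK and -2.11 on SFRP5 CLP. Tcf3 and Id3 were higher on both CLP arrays than on both LSK arrays, by 4.58 and 9.87-fold in WT (Id3 by 3.25-fold with normexp), with limma adjusted p of 0.0511 and 0.0146, while Id1 was higher in the WT pair and lower in the SFRP5 pair. Notch1 (-1.14) and Notch2 (-1.04) were lower, Notch2 alone passing the fit, and the Notch targets Hes1 (1.89) and Nrarp (2.74) were higher in WT without passing it (limma adjusted p = 0.148 and 0.105).

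The Gimap genes, which encode GTPases of lymphocyte survival, were lower in WT CLP in 5 of 8 cases and higher in none. Gimap8 stood at 4.50 on WT LSK, 1.80 on WT CLP, 3.43 on SFRP5 LSK and 1.94 on SFRP5 CLP, and was 6.49-fold lower in WT CLP, and Gimap6 was 3.23-fold lower. These 2 fell over the 4 arrays. Gimap4 gave 0.30 in WT and 4.07 in the SFRP5 pair. The genes lie in a cluster of similar copies, so a probe may read a neighbour.

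Red cell genes of every kind listed were mostly higher in WT CLP. Erythroid transcription factors were higher by at least 2-fold in 8 of 15 cases and lower in none. Gata1, the master factor of red cells, stood at 0.32 on WT LSK, 4.90 on WT CLP, -0.51 on SFRP5 LSK and 4.24 on SFRP5 CLP. Klf1, its partner on globin genes, stood at -1.86 on WT LSK, 2.78 on WT CLP, -2.35 on SFRP5 LSK and 2.18 on SFRP5 CLP. Sox6 stood at -2.08 on WT LSK, 1.08 on WT CLP, -4.62 on SFRP5 LSK and 0.53 on SFRP5 CLP. Both CLP arrays lay above both LSK arrays for all 3, by 24.0, 24.9 and 8.90-fold in WT, with 13.3-fold for Klf1 and 4.60-fold for Sox6 under normexp. Zfpm1, the GATA1 cofactor, gave 1.97, while Myb (-0.17), Bcl11a (-0.03) and Nfe2 (-0.60) lay within 2-fold.

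Of 7 globin-list genes above background on both WT arrays, the 6 adult ones, Ahsp included, were at least 2-fold higher in WT CLP. Hba-a1, an alpha globin, stood at 3.16 on WT LSK, 8.50 on WT CLP, 2.97 on SFRP5 LSK and 7.63 on SFRP5 CLP. Hbb-bs, a beta globin, stood at -1.44 on WT LSK, 3.86 on WT CLP, -2.04 on SFRP5 LSK and 2.26 on SFRP5 CLP. Ahsp, the chaperone of free alpha globin, stood at -2.09 on WT LSK, 5.38 on WT CLP, -1.65 on SFRP5 LSK and 4.77 on SFRP5 CLP. The LSK arrays were low and the CLP arrays high in both genotypes, with WT folds of 40.7, 39.5 and 177, and with normexp of 22.2 for Hbb-bs and 86.9 for Ahsp. Globin copies are nearly identical, so the values of Hba-a1 and Hba-a2 (4.91), or of Hbb-bs, Hbb-b1 (3.73) and Hbb-b2 (4.11), may come from shared transcripts. Of the embryonic globins, Hbb-y and Hbb-bh1 were above background on WT LSK alone, 1 of them at least 2-fold lower in WT CLP. Hbb-bh2 lay within 2-fold (-0.26) and Hba-x was at least 4.13-fold higher.

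Red cell membrane genes were at least 2-fold higher in 19 of 23 cases and lower in none, with a median of 3.54, and 3 more were above background on WT CLP alone. Over the 4 arrays 21 of 26 rose and none fell. Rhag, which holds the Rh complex in the membrane, stood at -4.32 on WT LSK, 2.72 on WT CLP, -4.49 on SFRP5 LSK and 2.25 on SFRP5 CLP. Kel, the Kell blood group protein, stood at -3.47 on WT LSK, 2.85 on WT CLP, -4.63 on SFRP5 LSK and 2.45 on SFRP5 CLP. Rhd, the Rh blood group protein, stood at -2.35 on WT LSK, 3.96 on WT CLP, -3.04 on SFRP5 LSK and 3.29 on SFRP5 CLP. All 3 were far below the 75th percentile on the LSK arrays and well above the 75th percentile on the CLP arrays, with WT folds of 132, 79.8 and 79.3 (25.8, 24.8 and 34.0 with normexp).

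Of the anion channel and the skeleton below the membrane, Slc4a1, the band 3 protein, stood at 1.20 on WT LSK, 6.97 on WT CLP, 1.78 on SFRP5 LSK and 6.42 on SFRP5 CLP, and Ank1, which ties it to that skeleton, at -0.54 on WT LSK, 5.10 on WT CLP, 0.79 on SFRP5 LSK and 4.72 on SFRP5 CLP. Add2, beta adducin, was at least 236-fold higher and Epb42, protein 4.2, at least 43.8-fold. Members with smaller differences included Gypc (1.28), Epb41 (1.28) and Xk (1.68). Hemgn, bright on all 4 arrays, lay within 2-fold (0.16). For Ermap and Dmtn the brightest probe lay within 2-fold, but further probes gave 6.31 and 6.61 for Ermap, and for Dmtn a level of -7.05 on WT LSK, not above background, and -0.04 on WT CLP.

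The starts of these genes can be read for the letters that GATA1 and KLF1 are known to bind. The sequences are the 250 bases before the transcript start of 3 red cell membrane genes, of Klf1 and, for contrast, of Hlf, from RefSeq on GRCm38.p6, 5′ to 3′ on the strand of the gene. They are Rhag at chr17:40810899-40811148 on the plus strand, Kel at chr6:41704326-41704575 on the minus strand, Rhd at chr4:134864286-134864535 on the plus strand, Klf1 at chr8:84901732-84901981 on the plus strand and Hlf at chr11:90390918-90391167 on the minus strand. Capitals mark a match to AGATAA or TGATAA, or to the CACC-type motif CCNCNCCC, on either strand, where overlapping matches run together.
Rhag: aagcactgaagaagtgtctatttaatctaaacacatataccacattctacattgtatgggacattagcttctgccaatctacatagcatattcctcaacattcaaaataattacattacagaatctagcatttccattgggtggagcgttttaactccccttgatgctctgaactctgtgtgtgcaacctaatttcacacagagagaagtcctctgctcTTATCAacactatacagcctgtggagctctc
Kel: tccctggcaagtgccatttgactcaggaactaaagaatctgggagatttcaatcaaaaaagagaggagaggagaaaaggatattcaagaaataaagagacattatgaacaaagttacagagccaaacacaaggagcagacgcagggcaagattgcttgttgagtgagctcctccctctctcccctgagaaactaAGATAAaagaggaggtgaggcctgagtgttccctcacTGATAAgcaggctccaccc
Rhd: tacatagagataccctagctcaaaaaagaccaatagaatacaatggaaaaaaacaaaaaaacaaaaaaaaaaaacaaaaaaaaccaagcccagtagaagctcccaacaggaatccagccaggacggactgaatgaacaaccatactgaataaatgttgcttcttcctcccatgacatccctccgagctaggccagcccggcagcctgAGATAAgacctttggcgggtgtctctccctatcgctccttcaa
Klf1: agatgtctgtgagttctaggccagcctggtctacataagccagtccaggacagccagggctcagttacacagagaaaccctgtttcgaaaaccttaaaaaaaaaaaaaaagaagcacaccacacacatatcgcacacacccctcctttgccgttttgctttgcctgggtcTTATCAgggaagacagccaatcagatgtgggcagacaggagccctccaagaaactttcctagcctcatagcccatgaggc
Hlf: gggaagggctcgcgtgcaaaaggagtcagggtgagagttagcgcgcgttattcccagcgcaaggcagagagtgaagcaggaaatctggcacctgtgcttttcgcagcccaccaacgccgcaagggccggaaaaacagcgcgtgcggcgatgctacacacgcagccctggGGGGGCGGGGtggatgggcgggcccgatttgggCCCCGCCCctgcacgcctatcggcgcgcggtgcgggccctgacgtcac
The GATA letters began 31 bases before the start in Rhag, 56 and 19 in Kel, 43 in Rhd and 80 in Klf1, and Hlf held 3 CACC-type matches and no GATA match. Of 19 red cell membrane genes with a listed promoter, 8 (42.1%) held a GATA match, as did 6 of 6 globin genes, 3 of 12 haem synthesis genes, 3 of 9 eosinophil genes and 1 of 22 stem cell surface genes. Over all 32851 promoters in the table, 16.6% held a GATA match and 45.9% a CACC-type match. Among 10943 named genes measured on both WT arrays the share was 12.7%, and it was 16.3% in those at least 4-fold higher and 16.4% in those at least 4-fold lower in WT CLP. CACC-type letters stood in 64.8% of the 10943 promoters and in 12 of the 19. A match of letters says nothing of binding.

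Every one of 16 haem synthesis genes had a value above 0, 15 of them at least 2-fold higher in WT CLP, with a median of 3.31, and 14 rose over the 4 arrays. Fech, which inserts iron into the ring, stood at -1.65 on WT LSK, 3.64 on WT CLP, -0.52 on SFRP5 LSK and 2.91 on SFRP5 CLP. Alas2, the red cell form of the first enzyme, stood at -0.43 on WT LSK, 2.56 on WT CLP, -2.10 on SFRP5 LSK and 1.63 on SFRP5 CLP. In both the CLP arrays were above the LSK arrays, by 39.3-fold for Fech (21.5-fold with normexp) and 7.95-fold for Alas2 in WT. Fam210b, at 3.38 in WT and 0.28 in the SFRP5 pair, was among the members that did not pass. The probes of Alas1, the housekeeping form, gave 2.07 and -0.42.

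Iron handling genes were at least 2-fold higher in 6 of 12 cases and lower in none. Tfrc, the transferrin receptor, stood at 0.98 on WT LSK, 4.52 on WT CLP, 0.35 on SFRP5 LSK and 3.92 on SFRP5 CLP. Slc40a1, the iron exporter, gave 4.21, and Slc11a2, an iron transporter, 3.40. These 3 rose. Steap3, the reductase that works with Tfrc, gave 3.18 in WT but 0.55 in the SFRP5 pair (limma adjusted p = 0.0728). The ferritins Fth1 (1.33) and Ftl1 (1.62) were higher in WT without passing. Pklr, the red cell pyruvate kinase, stood at -3.81 on WT LSK, 3.07 on WT CLP, -1.68 on SFRP5 LSK and 2.18 on SFRP5 CLP, 118-fold higher in WT CLP (24.4-fold with normexp), and was the member of the glycolysis list that rose.

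**Figure D3:**
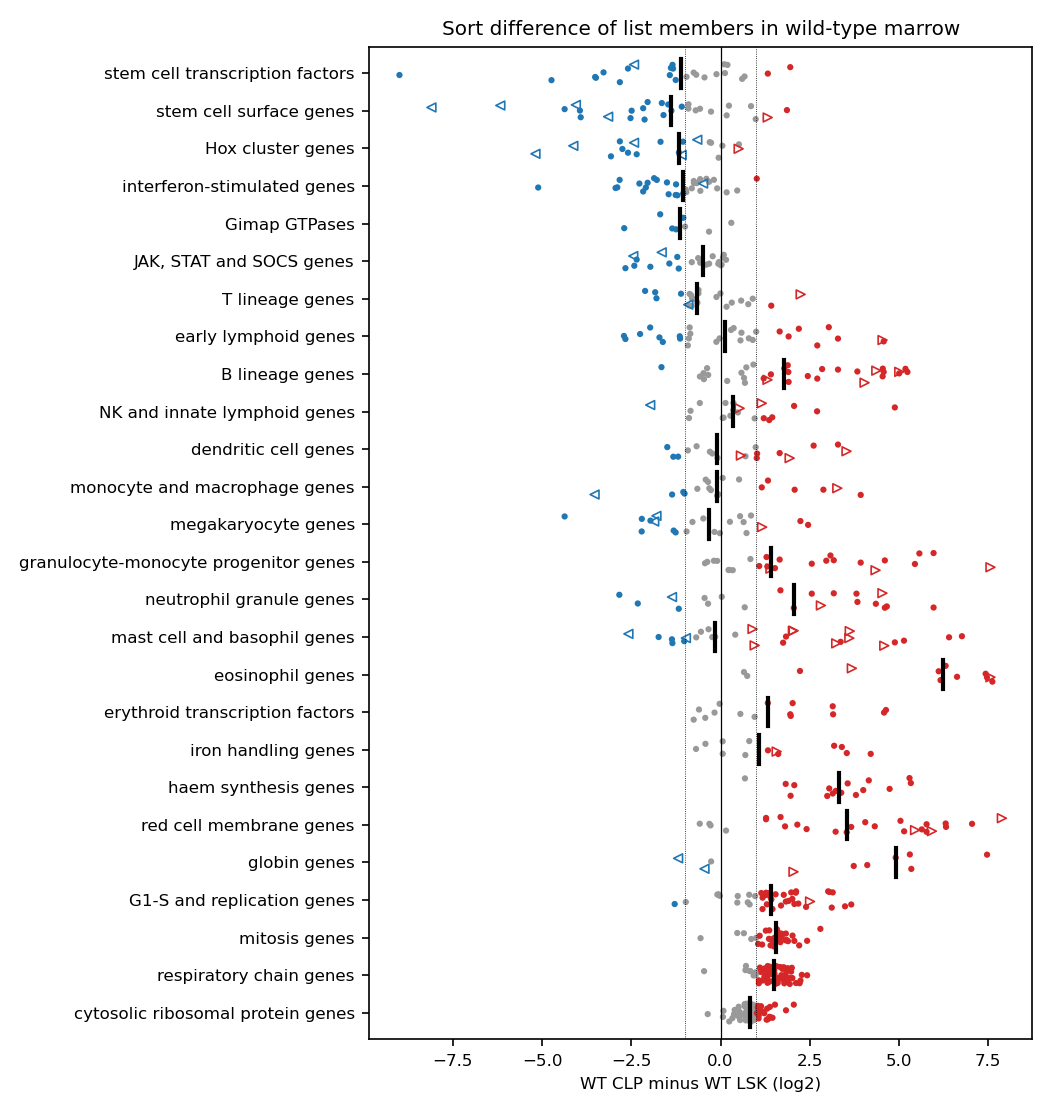
WT CLP minus WT LSK difference (log2) of the members of 26 gene lists, with black bars at list medians, red points for members at least 2-fold higher, blue points for members at least 2-fold lower and hollow triangles for lower bounds. Globin, red cell membrane, haem and eosinophil lists lie to the higher side, and stem cell, Hox and interferon lists to the lower side.

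Eosinophil genes had the highest median of the 49 lists, 6.24 over 10 genes, 8 of which were at least 2-fold higher and none lower. Prg2, the major basic protein of eosinophil granules, stood at 0.31 on WT LSK, 7.93 on WT CLP, 2.50 on SFRP5 LSK and 7.47 on SFRP5 CLP. Epx, eosinophil peroxidase, stood at -1.91 on WT LSK, 5.52 on WT CLP, 0.51 on SFRP5 LSK and 5.97 on SFRP5 CLP. Cebpe, a factor of granule formation, stood at -5.22 on WT LSK, 2.49 on WT CLP, -6.70 on SFRP5 LSK and 2.04 on SFRP5 CLP, where it was not above background on WT LSK. Both CLP arrays were far above both LSK arrays, by 196-fold, 172-fold (89.9-fold with normexp) and at least 189-fold in WT. Prg2 and Epx were higher on SFRP5 LSK than on WT LSK, and the sort difference was smaller in that pair. The ribonuclease genes Ear1 (6.63), Ear2 (6.16), Ear6 (7.47) and Ear10 (6.11) are near-identical copies and may share signal. Over the 4 arrays 10 of 12 rose. Il5ra (0.75) and Ccr3 (0.66), the receptors by which eosinophils respond to interleukin 5 and eotaxin, lay within 2-fold.

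Mast cell and basophil genes went both ways. Hdc, which makes histamine, stood at -4.38 on WT LSK, 2.39 on WT CLP, -2.44 on SFRP5 LSK and 2.62 on SFRP5 CLP. Prss34, a basophil protease, stood at -1.07 on WT LSK, 5.34 on WT CLP, -0.96 on SFRP5 LSK and 4.79 on SFRP5 CLP, and Mcpt8, another, at -2.93 on WT LSK, 2.21 on WT CLP, -5.48 on SFRP5 LSK and 1.83 on SFRP5 CLP. In these 3 both CLP arrays were high and both LSK arrays low, with WT folds of 109, 84.7 and 35.3 (18.6, 52.5 and 13.1 with normexp). The IgE receptor chains Fcer1a and Ms4a2 were above background on WT CLP alone, at least 12.3 and 12.2-fold higher, and Cpa3, the granule carboxypeptidase, gave 3.37. Other mast cell protease genes did not follow as a group. Tpsb2 gave -1.73 and Mcpt4 was above background on WT LSK alone (-4.43 on WT LSK and -5.40 on WT CLP). Cma1 was above background on WT CLP alone, at least 1.94-fold higher, and Tpsab1 and Mcpt1 were above background on neither WT array. Of 17 genes on both arrays, 7 were higher and 4 lower by 2-fold, 8 were on WT CLP alone, and over the 4 arrays 13 of 26 rose and none fell.

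Genes of granulocyte-monocyte progenitors passed 2-fold upward in 14 of 22 cases and downward in none, with a median of 1.42. Elane, neutrophil elastase, stood at -1.36 on WT LSK, 4.61 on WT CLP, 0.42 on SFRP5 LSK and 5.03 on SFRP5 CLP. Ctsg, cathepsin G, stood at 1.47 on WT LSK, 6.07 on WT CLP, 2.11 on SFRP5 LSK and 6.10 on SFRP5 CLP. Mpo, myeloperoxidase, stood at 4.76 on WT LSK, 7.31 on WT CLP, 5.51 on SFRP5 LSK and 7.55 on SFRP5 CLP and was already bright on the LSK arrays. The CLP arrays were above the LSK arrays for all 3, by 62.7, 24.3 and 5.89-fold in WT, with 34.2-fold for Elane under normexp. Ms4a3, a gene of granulocyte-monocyte progenitors, gave 5.57 and Hp, haptoglobin, 5.45. Cebpa, the factor that opens this fate, gave 1.53 in WT and -0.43 in the SFRP5 pair (limma adjusted p = 0.512), and Spi1, the factor PU.1, lay within 2-fold (0.25).

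Neutrophil granule genes, a list that also holds Elane and Ctsg, were mostly higher but not as a block. The WT value passed 2-fold upward in 10 of 17 cases and downward in 3, at a median of 2.05, and 8 of 20 rose over the 4 arrays while 1 fell. S100a8, a calcium-binding protein of the cytosol, stood at -3.29 on WT LSK, 1.38 on WT CLP, -1.65 on SFRP5 LSK and 1.17 on SFRP5 CLP, and S100a9, its partner, at 0.20 on WT LSK, 4.01 on WT CLP, 2.07 on SFRP5 LSK and 3.42 on SFRP5 CLP. Ngp, a secondary granule protein, stood at -3.79 on WT LSK, 0.56 on WT CLP, 0.05 on SFRP5 LSK and -0.95 on SFRP5 CLP. S100a8 and S100a9 rose (limma adjusted p = 0.00442 and 0.0213), while Ngp was 20.4-fold higher in WT CLP (5.52-fold with normexp) and lower in the SFRP5 pair. Padi4 fell (-2.32, with -0.17 by a further probe), Retnlg (-2.84) and Cd177 (-1.17) were lower in WT, Lcn2 (0.68) and Cxcr2 (0.03) lay within 2-fold, and Mmp9 was above background on neither WT array.

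The 2-fold mark was passed upward by 5 and downward by 3 of the 17 genes of monocytes and macrophages, and by 5 and 3 of the 15 of dendritic cells. These were 29.4% and 17.6% of the former and 33.3% and 20% of the latter, against 17.8% and 14.3% of all genes. Both lists had medians of -0.09, with a sign that changed under 4 and 5 of 9 alternatives. F13a1 (3.93), Vcam1 (2.88) and Maf (2.08) rose among the former, and Ccr2, the receptor of inflammatory monocytes, was at least 9.66-fold higher. Csf1r (-0.09), Cd68 (-0.27) and C1qb (-0.31) lay within 2-fold. Of dendritic cell genes, Clec9a was at least 11.6-fold higher, Runx2 (-1.49) and Clec10a (-1.32) fell, and Siglech lay within 2-fold (-0.09). Of 18 megakaryocyte genes 2 (11.1%) were higher and 6 (33.3%) lower. Pf4 (2.24) and Gp1ba (2.45) rose, Plek (-1.96) fell, and Itga2b (0.73), Gp9 (0.65) and Gp1bb (-0.17) lay within 2-fold.

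Genes of cell division were higher in WT CLP almost throughout. Of 39 genes of DNA replication and S phase entry, 28 were higher by 2-fold or more and 1 lower, the median being 1.42. Of 36 mitosis genes, 31 were higher and none lower, with a median of 1.57, and 17 rose over the 4 arrays. Ccne1, the cyclin of S phase entry, stood at -0.63 on WT LSK, 3.04 on WT CLP, -2.11 on SFRP5 LSK and 2.19 on SFRP5 CLP. Rrm2, which supplies deoxynucleotides, stood at 2.64 on WT LSK, 5.69 on WT CLP, 3.29 on SFRP5 LSK and 5.49 on SFRP5 CLP. Ccnb1, the mitotic cyclin, stood at 0.97 on WT LSK, 3.18 on WT CLP, 1.1 on SFRP5 LSK and 2.87 on SFRP5 CLP. The CLP arrays lay above the LSK arrays for all 3, by 12.7, 8.29 and 4.61-fold in WT.

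The D cyclins, which couple growth signals to division, did not move together. Ccnd3 stood at 2.40 on WT LSK, 5.42 on WT CLP, 2.96 on SFRP5 LSK and 5.41 on SFRP5 CLP. Ccnd2 stood at 2.23 on WT LSK, 0.94 on WT CLP, 2.51 on SFRP5 LSK and 0.93 on SFRP5 CLP. Ccnd1 stood at 1.02 on WT LSK, 0.05 on WT CLP, 0.78 on SFRP5 LSK and -0.93 on SFRP5 CLP. The CLP arrays were higher than the LSK arrays for Ccnd3, by 8.09-fold in WT, and lower for Ccnd2 and Ccnd1, with limma adjusted p of 0.00168, 0.0306 and 0.0626. Of 20 CDK inhibitor and quiescence genes, 16 lay within 2-fold, among them Cdkn1b (0.40), Cdkn1a (-0.47) and Cdkn1c (0.02), the kinase inhibitors p27, p21 and p57 of quiescent stem cells. Cdkn2c, the inhibitor p18, rose (2.24), as did Rb1 (2.33), and Txnip fell (-1.21).

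Respiratory chain genes shifted in a narrow band. Of 77, 68 were higher by 2-fold or more and none lower, the median being 1.50, and 37 rose. Cyc1, cytochrome c1, stood at 1.87 on WT LSK, 4.15 on WT CLP, 2.15 on SFRP5 LSK and 3.62 on SFRP5 CLP, and Cox6a1, a cytochrome oxidase subunit, at 4.43 on WT LSK, 6.68 on WT CLP, 5.21 on SFRP5 LSK and 6.24 on SFRP5 CLP. In both the CLP arrays were the higher ones. Cytosolic ribosomal protein genes shifted less. Of 80, 79 had a value above 0 and 23 (28.8%, against 25.6% of the brighter genes) were at least 2-fold higher. Their median was 0.84, against 0.32 over the brighter genes. In the SFRP5 pair the median of the same genes was 0.09, and none was called by the fit. Histone genes likewise had a WT median of 1.60, with 28 of 39 higher and 1 lower, against a median of 0.20 in the SFRP5 pair and 4 of 41 that rose. H2ac20 stood at 6.27 on WT LSK, 7.94 on WT CLP, 7.11 on SFRP5 LSK and 7.47 on SFRP5 CLP, with both SFRP5 arrays between the WT arrays. Histone copies are near-identical, so their probes are not independent.

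**Figure D4:**
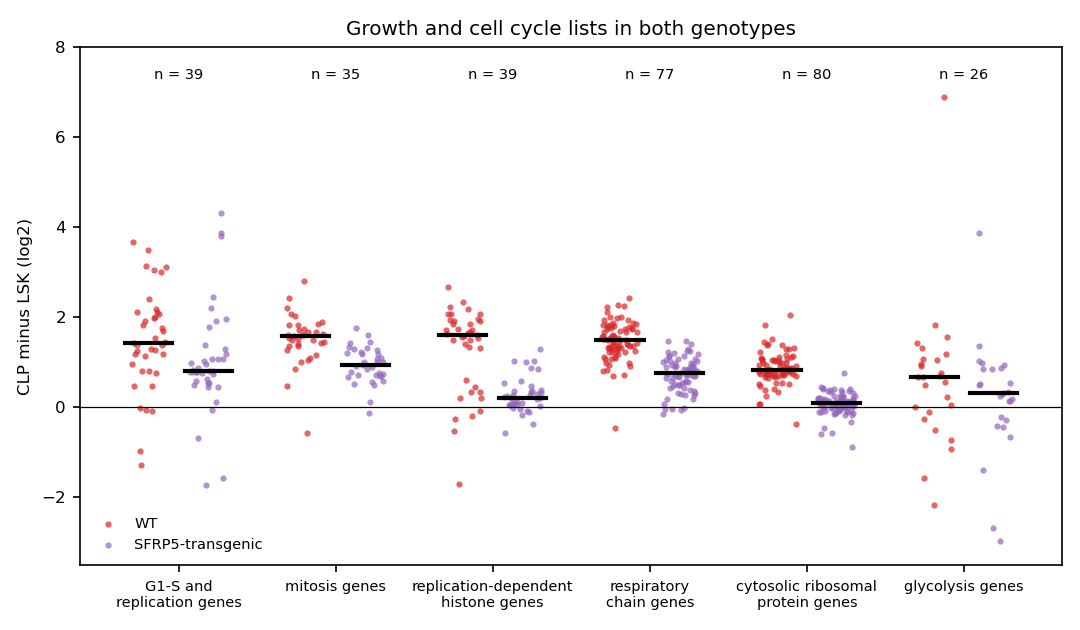
Difference between sorts (CLP minus LSK, log2) of the members of 6 lists of growth genes in the WT pair and in the SFRP5 pair, with bars at the medians. The medians of mitosis, replication and respiratory chain genes are above 0 in both pairs, and those of histone and ribosomal protein genes are near 0 in the SFRP5 pair.

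Of 27 glycolysis genes 8 (29.6%) were higher by 2-fold or more and 2 (7.41%) lower, against 17.8% and 14.3% of all genes. Among the brighter genes these shares were 25.6% and 11.5%. The lower glycolysis genes were Aldoc (-2.18) and Ldhb (-1.57), both of which fell. Ldha (0.91) and Pkm (-0.11) lay within 2-fold. Metallothioneins, which bind zinc, gave large WT values. Mt2 stood at -1.79 on WT LSK, 4.81 on WT CLP, 1.30 on SFRP5 LSK and 3.77 on SFRP5 CLP and Mt1 at -2.62 on WT LSK, 3.42 on WT CLP, -0.20 on SFRP5 LSK and 3.22 on SFRP5 CLP. Both CLP arrays were above both LSK arrays, with WT folds of 96.7 and 65.7 (51.3 and 24.4 with normexp), but the SFRP5 differences were smaller (2.46 and 3.42), and a further probe of Mt1 gave -0.09. The zinc importer Slc39a8 rose (3.20), while Slc39a1 (0.04) and Slc39a6 (-0.36) lay within 2-fold. Alox5 and Alox15, the lipoxygenases, were above background on WT CLP alone, at least 24.1 and 12.8-fold higher, and both rose.

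Since the series concerns a Wnt antagonist, Wnt genes were examined in the same WT pair. Of 10 target and feedback genes above background on both arrays, 1 was at least 2-fold higher (10%, against 17.8% of all genes). None was lower, where 14.3% of all genes were. The higher member was Tnfrsf19 (1.72). Over the 4 arrays 3 of 13 members tested rose and none fell, where 6.76% of all genes rose and 4.56% fell. Lef1, Rnf43, a ligase that removes Wnt receptors, and Lgr5, the R-spondin receptor, were above background on WT CLP alone, at least 23.3, 18.2 and 8.52-fold higher. Rnf43 was above background on neither SFRP5 array. Axin2, a common readout of the pathway, was not above background by its brightest probe on WT LSK (-6.90 on WT LSK and -3.24 on WT CLP), and a further probe gave 0.37. Wnt receptor and signal transduction genes went both ways. Of 22 measured, 2 (9.09%) were at least 2-fold higher and 4 (18.2%) lower, against 17.8% and 14.3% of all genes. The lower share was thus near that of all genes. The median was 0.05, and 3 more on WT CLP alone and 2 on WT LSK alone had bounds of at least 2-fold. The higher members were Fzd5 (1.77) and Dvl2 (1.25), which did not pass the fit and whose further probes gave -0.33 and 0.38. Of the lower receptors, Fzd6 stood at 1.17 on WT LSK, -2.28 on WT CLP, -0.19 on SFRP5 LSK and -0.60 on SFRP5 CLP, Fzd9 gave -3.25 and Fzd4 was at least 8.04-fold lower. Fzd9 and Fzd4 fell (limma adjusted p = 0.0107 and 0.00906). Ctnnb1, beta-catenin, stood at 5.04 on WT LSK and 4.88 on WT CLP, and Lrp5 (0.12), Lrp6 (-0.68) and Sfrp5 itself (0.21) lay within 2-fold.

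Of 14 BCL2 family genes, 7 were higher by 2-fold or more and 1, Pmaip1 (-1.74), lower. The effectors Bax (3.36 on WT LSK and 4.79 on WT CLP) and Bak1 (1.60 on WT LSK and 3.19 on WT CLP) were higher by 2.70 and 3.01-fold in WT (limma adjusted p = 0.0622 and 0.0621), Bcl2a1d, a survival member, rose (3.24), and Bcl2 (-0.70), Mcl1 (-0.20) and Bcl2l1 (0.17) lay within 2-fold. Of 25 homing and adhesion genes, 18 lay within 2-fold, a share near that of all genes, and 4 of 5 that were on WT CLP alone had bounds of at least 2-fold. Cxcr4, the receptor that holds progenitors in marrow, gave 1.17 (limma adjusted p = 0.143), and S1pr1, an egress receptor, -1.89 (limma adjusted p = 0.307). Of 18 MHC genes, 14 lay within 2-fold, Nlrc5, the activator of class I genes, fell (-2.13), and the class II chain H2-Ab1 rose (1.03).

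The remaining lists were small in effect or in number. Of 12 heat shock genes, 3 (25%, near the 25.6% of brighter genes) were at least 2-fold higher, and Hsph1 (1.47) and Hspe1 (1.38) rose. Of 26 MYC partner and ribosome biogenesis genes, 5 (19.2%) were higher, near the 17.8% of all genes. Lower were 2 (7.69%, against 14.3% of all genes), Mycn and Mga (-1.41). Mycl, a further MYC gene, was at least 2.57-fold higher, and Nip7 (1.55) and Nolc1 (1.27), which help to build ribosomes, rose. Plasma cell genes were mostly dim, but Mzb1, a chaperone of antibody-making cells, rose (3.65). Of the stroma and endothelium list, Cxcl12, the ligand of Cxcr4, gave 2.76, and Alpl, alkaline phosphatase, and Fabp4, a fatty acid carrier, were at least 21.4 and 5.28-fold higher. All 3 rose. Of 11 imprinted growth genes, 3 were lower, H19 (-1.04), Dlk1 (-1.22) and Kcnq1ot1 (-2.07), and none passed the fit.

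The sort difference was next set against that of the SFRP5 pair, which shares no array with it. Across 15181 genes above background on all 4 arrays the differences had a Pearson correlation of 0.63, and 0.77 across the 8635 brighter ones. These are correlations across genes, which are not independent replicates. Of 2759 genes at least 2-fold higher in WT CLP, 1064 (38.6%) were also at least 2-fold higher in the SFRP5 pair and 53 at least 2-fold lower. Of 2128 lower genes, 805 (37.8%) repeated and 78 turned. Over all 15181 genes, 11.4% were at least 2-fold higher in the SFRP5 pair and 10.7% lower. At 4-fold in WT, 422 of 548 higher genes and 290 of 446 lower genes were at least 2-fold in the same direction in the SFRP5 pair.

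**Figure D5:**
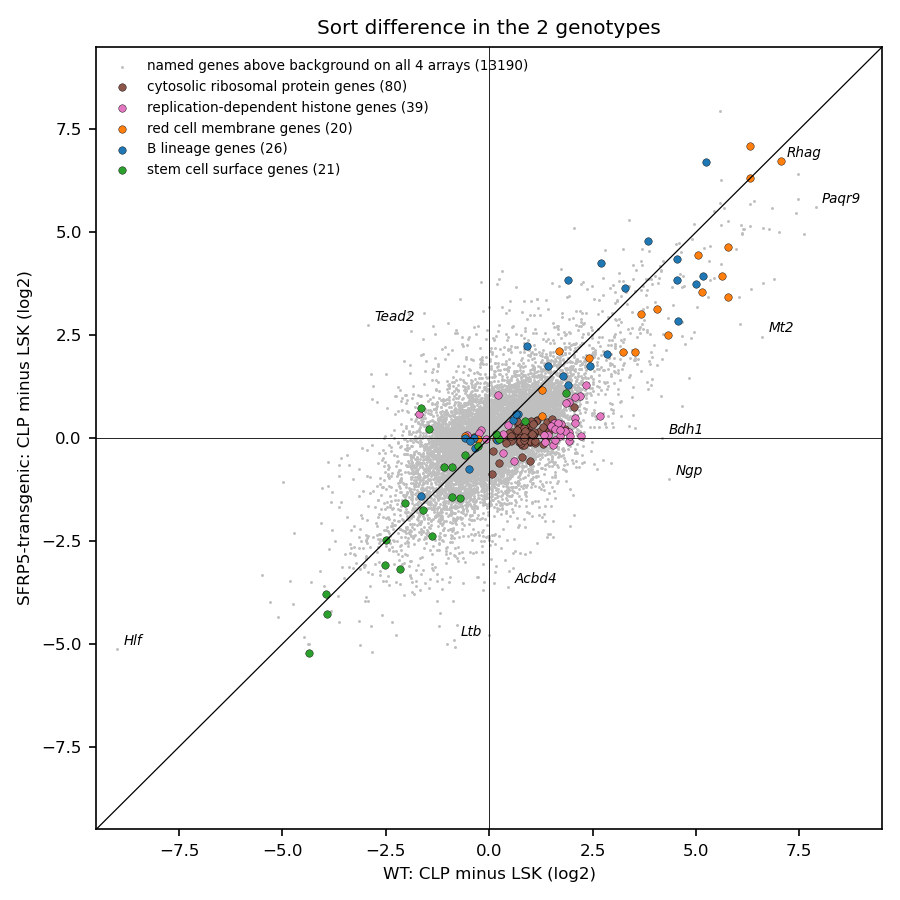
Sort difference (CLP minus LSK, log2) of 13190 named genes in the WT pair (horizontal axis) and in the SFRP5 pair (vertical axis), with 5 gene lists in colour. B lineage and stem cell surface genes lie near the diagonal. Red cell membrane genes lie mostly high in both pairs, with a median of 3.86 in WT and 2.77 in the SFRP5 pair. Histone and ribosomal protein genes lie above 0 in WT and near 0 in the SFRP5 pair.

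A few bright genes had a WT difference that the SFRP5 pair did not share. Bdh1, a ketone body enzyme, stood at -3.56 on WT LSK, 0.63 on WT CLP, 0.10 on SFRP5 LSK and 0.10 on SFRP5 CLP, low on WT LSK alone. Tead2, a Hippo pathway factor, stood at 0.17 on WT LSK, -2.75 on WT CLP, -2.86 on SFRP5 LSK and -0.12 on SFRP5 CLP, with opposite directions in the pairs. Phxr4 gave -4.98 and -1.06, and did not pass the fit (limma adjusted p = 0.0549). In the other direction, Ltb, lymphotoxin beta, gave -0.85 in WT and -4.90 in the SFRP5 pair, and Zfp503 -0.84 and -5.09. Whether the sort difference of these genes depends on genotype was not tested, since each pair has 1 array per sort.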

How the data were processed

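RNA from 4 sorted samples was hybridised to Agilent one-colour arrays. The deposited files hold spot intensities from Agilent Feature Extraction 10.10, per the submitters' processing notes, and a table in which the authors scaled each array's intensities by 1 factor. The probe flags for background and outliers were read from the same deposited files. The authors' deposited ratio table was not used here.

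The processed intensities were taken as log2 and reduced by each array's 75th percentile over spots that are not controls. Outlier-flagged spots were left out and the spots of a probe averaged. A gene's value is that of the probe with the highest mean over the 4 arrays. Of 33325 probes with a symbol, 30994 matched RefSeq's gene table (GRCm38.p6) and 3525 symbols were updated. A gene above background on 1 WT array only has a bound, the bright level against the higher of its own dim level and the lowest signal well above background on the other array. The sort difference was fitted with limma 3.58.1 in R 4.3.3 (genotype and sort terms, trended variance, Benjamini-Hochberg adjustment) on genes above background on at least 2 arrays. Tested on simulated data of 17416 genes for this fit, it recovered 18% of genes changed by 1 on the log2 scale, 50% at 2, 92% at 4 and 100% at 6, with 9 false calls of 139. The simulated noise was normal, with the same SD for genes of like brightness. It held no genotype effect, and 50 genes were changed at each size. These rates need not hold for the real data. Python 3.11.15 with pandas 2.3.3 was used for the rest.

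The groups come from the sample titles. The members and the 49 gene lists (998 entries, 13 not found: Ighm, Ly6c2 and Il3ra in 2 lists each, Hbb-bt, Ighg2b, Iglc1, Rian, Hspa1b, Bcl2a1a and Bcl2a1b) were chosen with earlier results of these data known. Genes named are the 15 highest and 15 lowest bright genes, the 10 highest and lowest bounds, the 4 highest and lowest members of each list, all sort, lineage, globin and sex-linked genes, the 10 largest gaps between genotypes, and list members within 2-fold. A further 55 list members, such as Ebf1, Pax5, Cd79a, Angpt1, Cd34, Slc4a1, Mpo and Ccnd3, were named for their roles after their values were seen. Some genes are counted in their lists but not reported here by name.

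Alternatives were normexp, quantile and cyclic loess, centring on a median, the authors' signals, averaged probes, outlier spots kept, no filter, brighter genes only, and fits without the trend or the genotype term. The mean signal is not a column of the files used here, so normexp used the median signal. The number of arrays limits the precision.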

Additional observations from a re-analysis of the deposited data

Results flagged for a closer look

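Among the genes chosen for naming, 6 had sort differences of at least 2-fold in opposite directions in the 2 genotypes. The difference between the genotypes was not tested, since each group has 1 array. Tead2 gave -2.92 in WT and 2.74 in the SFRP5 pair, and F2rl2, a thrombin receptor family member, gave -2.21 and 1.25. Marco, a scavenger receptor of macrophages, gave -1.01 and 1.29, and Cxcr6, a chemokine receptor, -1.07 and 1.92. Ngp and Id1 had the opposite order, 4.35 and -1.01 for Ngp and 1.86 and -1.03 for Id1. None of the 6 passed the fit over the 4 arrays.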

How the results depend on the processing

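With 1 array per group the WT difference has no replicate to leave out. The labels give no replicate numbers. The fit over the 4 arrays compares the sorts within each genotype, and without the genotype term it called 2077 genes. Genes at least 2-fold lower in WT CLP numbered 2288 as reported, 1038 with normexp, 4238 on the authors' deposited signals, 4248 with no filter on dim probes and 992 among brighter genes. Genes at least 2-fold higher numbered 2849 as reported and 1540 on the authors' signals. The share of 2-fold differences that were higher was 55.5% as reported, 66.0% with normexp, 26.7% on the authors' signals and 69.1% among brighter genes. Centring on the median of measured probes moved the median of all genes by 0.11. The fit over the 4 arrays called 1971 genes as reported, 2977 with normexp, 1278 with cyclic loess, 1088 with no filter and 826 without the variance trend. Of the named genes, Ier5 alone turned from 2-fold higher to lower, at -0.40 as the mean of its probes. The cause was not tested. Medians of the red cell membrane list ranged from 3.05 to 4.06, of eosinophil genes from 5.64 to 6.35, of B lineage genes from 1.16 to 1.91 and of stem cell surface genes from -1.79 to -0.64 over 9 alternatives. Values of genes well below the 75th percentile are limited by signal over background.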
